A study of Mus musculus with 3 samples.

Results

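Polyamine metabolism was described through 10 genes, taken from the table of raw counts by their symbols: Odc1, Azin1, Oaz1, Oaz2, Sat1, Srm, Sms, Amd1, Smox and Paox. All 10 were found among 44788 rows. The rule names genes by pathway and sets no threshold on a measured value. The cells were T lymphocytes from the spleens of female BALB/c mice aged 6 to 8 weeks, isolated with magnetic beads against CD90.2 and cultured in medium with 2% fetal bovine serum. All 3 RNA-sequencing libraries, replicates 1 to 3, came from cells given LZ-8, a protein first isolated from Ganoderma mushrooms and known to act on immune cells, for 10 h. There was 1 group and no untreated sample, so the values are levels in treated cells and say nothing of what LZ-8 changed. Separate animals or cultures for the replicates are not stated in the labels, so every spread and p-value concerns these libraries and may be technical.

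Polyamines (putrescine, spermidine and spermine) are small positively charged molecules that bind nucleic acids and are needed for proliferation and translation. Ornithine decarboxylase (Odc1) makes putrescine from ornithine. S-adenosylmethionine decarboxylase (Amd1) supplies the aminopropyl groups that spermidine synthase (Srm) and spermine synthase (Sms) add in turn. Antizymes (Oaz1 and Oaz2) bind ornithine decarboxylase and send it to the proteasome, and the antizyme inhibitor (Azin1), an inactive relative of the enzyme, binds antizyme in its place. Spermidine/spermine acetyltransferase (Sat1) and the oxidases Paox and Smox run the pathway backwards. In T cells, activation is known to raise polyamine synthesis, with Odc1 among the targets of MYC.

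The libraries held 13239482 to 15683820 counts. Levels are given as CPM, counts scaled to the library size after TMM normalisation, as mean ± SD with n = 3, and a floor of 3 counts stood at 0.186 to 0.236 CPM, covering counting error only. T cell markers were present, with the 10 fixed genes summing to 3130 to 3320 CPM and none of them under 1 CPM throughout. Marker sums of other cells were 11.1 to 11.8 CPM for B cells, 13.2 to 16.4 for macrophages, 10.4 to 12.5 for dendritic cells, 0.124 to 0.943 for neutrophils, 0.786 to 0.991 for NK cells and 50.5 to 61.8 for stroma and endothelium, the last mostly Pecam1. List members below 1 CPM throughout numbered 0 of 5, 5 of 7, 3 of 5, 5 of 5, 4 of 4 and 4 of 5, in that order. Csf1r, C1qa, C1qb, Siglech, Ncr1 and Klra8 had no counts. The 18S ribosomal RNA row took 5.83%, 2.37% and 0.992% of the counts of replicates 1, 2 and 3.

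Of the 10 rows, those of the enzymes at the start of synthesis and at spermidine were the highest. With the rows of near-identical copies added, described further on, this order did not hold: Oaz1 came to 687.4 ± 164 CPM, Odc1 to 625.1 ± 63.9 and Srm to 390.8 ± 74.6. Srm had 450.9, 372.6 and 308.3 CPM in replicates 1, 2 and 3 (377.3 ± 71.4), which put it above 98.3% of the 23131 genes with a count. Odc1 had 229, 243.9 and 272.6 CPM (248.5 ± 22.2), above 96.7% of those genes. Both were higher than every other member in each library, and their ranges did not overlap. Srm lies on chromosome 4 from 148591503 to 148594993 and Odc1 on chromosome 12 from 17544794 to 17551505. Coordinates span the annotated gene in GENCODE on GRCm38. In bulk RNA, a lower level can come from fewer cells of a type or from less RNA per cell, and these cannot be told apart.

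Amd1 and Sms stood lower on the side of synthesis. Amd1 had 59.1, 80.4 and 89.6 CPM (76.4 ± 15.7), lowest in replicate 1. Sms had 34.3, 39.7 and 42.4 CPM (38.8 ± 4.12), also lowest in replicate 1. Every Amd1 value was above every Sms value. Amd1 lies on chromosome 10 from 40287458 to 40302186 and Sms on chromosome X from 157443855 to 157492287.

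The regulators of ornithine decarboxylase followed Odc1. Oaz1, the general antizyme, had 142.7, 115.7 and 112.9 CPM (123.8 ± 16.5). Azin1 had 107.1, 120.4 and 115.3 CPM (114.2 ± 6.71). The ranges of these genes overlapped, and Oaz1 was the higher in 1 of 3 libraries. Oaz2, the second antizyme, had 11.0, 12.9 and 15.0 CPM (13.0 ± 2.03), with 140 to 243 counts. The third antizyme gene, Oaz3, known from the testis, had no count in any library. Oaz1 lies on chromosome 10 from 80826656 to 80829290, Azin1 on chromosome 15 from 38487427 to 38519266 and Oaz2 on chromosome 9 from 65668001 to 65690300.

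Catabolic genes were led by Sat1, whose product marks spermidine and spermine by acetylation. Sat1 had 55.1, 65.1 and 75.0 CPM (65.1 ± 9.97), highest in replicate 3. Smox, which oxidises spermine directly, had 26.4, 24.6 and 25.0 CPM (25.3 ± 0.949) and varied least of the 10 genes, with a coefficient of variation of 3.75%. Paox, which oxidises the acetylated forms, was the lowest member, at 6.91, 7.06 and 5.88 CPM (6.62 ± 0.639) from 88 to 107 counts. Sat1 lies on chromosome X from 155213132 to 155216449, Smox on chromosome 2 from 131491496 to 131525922 and Paox on chromosome 7 from 140115799 to 140137224. Across the order by CPM, the ranges of Oaz1 and Azin1 and those of Amd1 and Sat1 overlapped, and the other 7 pairs of neighbours did not overlap.

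**Figure D1:**
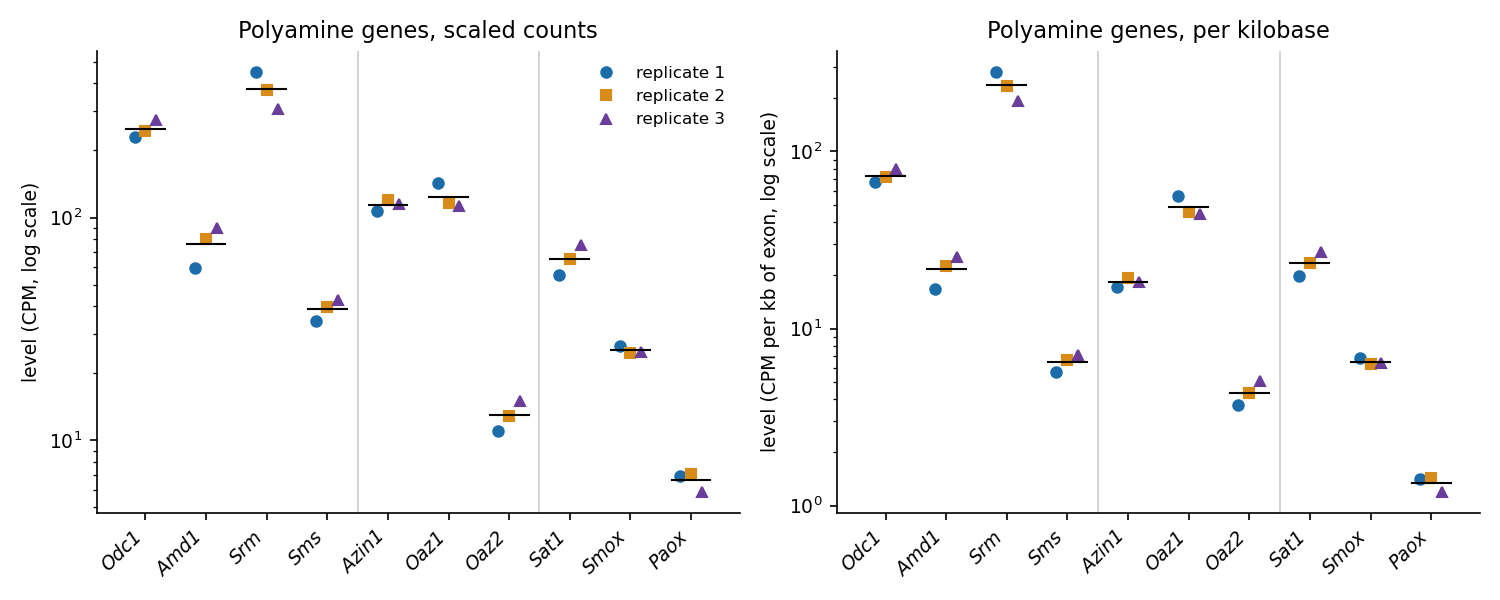
Level of the 10 polyamine genes in each library, as CPM (left) and as CPM per kilobase of exon (right), both on log axes, with a line at the mean; grey lines separate synthesis, regulators and catabolism. Srm and Odc1 stand above the others, and Paox is the lowest on both scales.

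Levels of different genes were compared per kilobase of exon, since longer transcripts collect more reads. On this scale Srm had a level of 235.9 ± 44.7 CPM per kb, Odc1 73.0 ± 6.51 and Oaz1 48.4 ± 6.43. Sat1 (23.4 ± 3.60), Amd1 (21.6 ± 4.42) and Azin1 (18.3 ± 1.07) followed, and neighbours among these 3 overlapped. Smox (6.50 ± 0.244) and Sms (6.46 ± 0.686) overlapped as well, above Oaz2 (4.34 ± 0.679) and Paox (1.35 ± 0.130).

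The row of a gene was not the whole record of its sequence in this table. Copies were sought by aligning the longest coding transcript of each member to all annotated transcripts. With the Amd1 pseudogenes known by symbol, 28 rows of copies belonged to 7 of the 10 members, and Azin1, Sat1 and Smox had none. Several copies carried as many counts as their parent gene or more. The sources used here do not say how the authors treated reads that align in several places, so reads of a member and its copies cannot be told apart.

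Oaz1 was the extreme case. Its processed pseudogene Oaz1-ps (chromosome 17, 17345456 to 17346140) had 9100, 8465 and 6743 counts in replicates 1, 2 and 3, against 1817, 1755 and 1823 for Oaz1. In CPM the pseudogene row was at 714.8, 558.3 and 417.7 (563.6 ± 149). The Oaz1 row held 16.6%, 17.2% and 21.3% of the counts of both rows. Over its 685 bases Oaz1-ps was 99.3% identical to the Oaz1 transcript, and 79.7% of its 100-base windows occurred letter for letter in an Oaz1 transcript. The site where ribosomes shift frame to make antizyme, a process that polyamines promote, is shown for the antizyme genes and the copy, because the copy carries it too (5′ to 3′, GENCODE transcripts on GRCm38, capitals mark the last sense codon of the first frame and the stop codon that is bypassed).
Oaz1: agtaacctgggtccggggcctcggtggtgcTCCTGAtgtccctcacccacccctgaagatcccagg
Oaz1-ps: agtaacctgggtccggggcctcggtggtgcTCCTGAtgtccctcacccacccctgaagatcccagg
Oaz2: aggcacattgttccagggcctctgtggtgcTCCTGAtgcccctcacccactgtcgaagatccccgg
The pseudogene matched Oaz1 at all 66 bases of this stretch, while Oaz2 differed from Oaz1 at 13 of 66 and shared the capitals. Oaz2 had no 50-base window in common with the longest coding Oaz1 transcript, and its copy Gm7543 had 10 to 11 counts.

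Odc1 had 11 copy rows, which together with Odc1 summed to 625.1 ± 63.9 CPM. Odc1 itself held 39.9%, 40.4% and 39.1% of these counts. The pseudogene Gm7993 (chromosome 5, 95974240 to 95975623) had 2977, 3563 and 4399 counts against 2915, 3698 and 4401 for Odc1, a ratio of 1.021, 0.9635 and 0.9995. The match in counts was close although only 11.6% of the 100-base windows of Gm7993 occurred exactly in an Odc1 transcript, at 95.8% identity. Gm17709 (chromosome 8, 121972727 to 121973822) had 778, 1102 and 1633 counts and Gm9115 (chromosome X, 102724402 to 102725749) had 187, 243 and 289. The start of the coding sequence is shown as 1 stretch where Gm7993 and Gm9115 are near to Odc1 (capitals in a copy mark bases that differ from Odc1).
Odc1: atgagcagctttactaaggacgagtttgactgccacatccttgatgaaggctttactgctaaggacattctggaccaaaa
Gm7993: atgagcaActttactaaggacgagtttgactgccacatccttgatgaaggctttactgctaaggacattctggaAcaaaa
Gm9115: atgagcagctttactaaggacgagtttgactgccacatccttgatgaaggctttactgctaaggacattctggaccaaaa
Gm7993 differed at 2 of these 80 bases and Gm9115 at 0, so both were nearer to Odc1 here than over their aligned lengths. Over those lengths identity was 95.8% for Gm7993 (1388 bases) and 96.7% for Gm9115 (1349 bases). Gm9115 had far fewer counts than Gm7993.

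Amd1 had a near-identical relative in Amd2, a coding gene without introns that was 99.6% identical over 3202 bases (chromosome 10, 35708675 to 35711892). Amd2 had 50.5, 66.7 and 73.5 CPM (63.6 ± 11.8), lowest in replicate 1 as Amd1 was. The pseudogenes Amd-ps3 and Amd-ps4 were at 31.1 ± 5.24 and 16.2 ± 3.90 CPM, and Amd-ps1 and Amd-ps7 at 2.63 ± 0.670 and 2.32 ± 0.592 CPM. Amd1 held 37.5%, 41.2% and 39.8% of the counts of its 9 rows, which summed to 192.6 ± 33.9 CPM. Paox (88, 107 and 95 counts) had a close double in Gm19680 on chromosome 1 (88, 112 and 107 counts), 99.9% identical over 1358 bases.

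For the other members the copies held few counts. Gm5364, a copy of Srm, had 205, 225 and 154 counts, and Srm held 96.6 ± 0.415% of both rows. Sms held 95.6 ± 1.90% of the counts of its 6 rows, but all 100-base windows of its coding sequence also occur in another annotated transcript. Sms-ps, which matches the whole coding sequence, the Sat1 copies Gm5552 and Gm46610, the Oaz2 copy Oaz2-ps, the Amd1 copies AC144860.3 and Gm42818 and the Odc1 copies Gm14788 and Gm14928 were not matched to rows and are not analysed here. The share of coding windows of 100 bases found elsewhere was 100% for Amd1, 81.9% for Paox, 69.8% for Oaz1, 32.1% for Odc1, 12.3% for Oaz2 and 0.959% for Sat1. For Srm, Azin1 and Smox it was 0%. Over whole transcripts the share was 5.45% for Azin1 and 0% for Srm and Smox. With windows of 50 bases the coding share was 85.9% for Paox, 84.3% for Oaz1, 68.0% for Odc1 and 41.3% for Oaz2. At that size it was 17.3% for Sat1, 3.60% for Srm and 0% for Azin1 and Smox. The sources used here give neither read length nor strand. Exons of Azin1 (5.72%), Oaz1 (2.89%) and Paox (2.89%) overlap other annotated genes, Gm49077, Mir1982 and Echs1, whose reads cannot be told apart there.

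**Figure D2:**
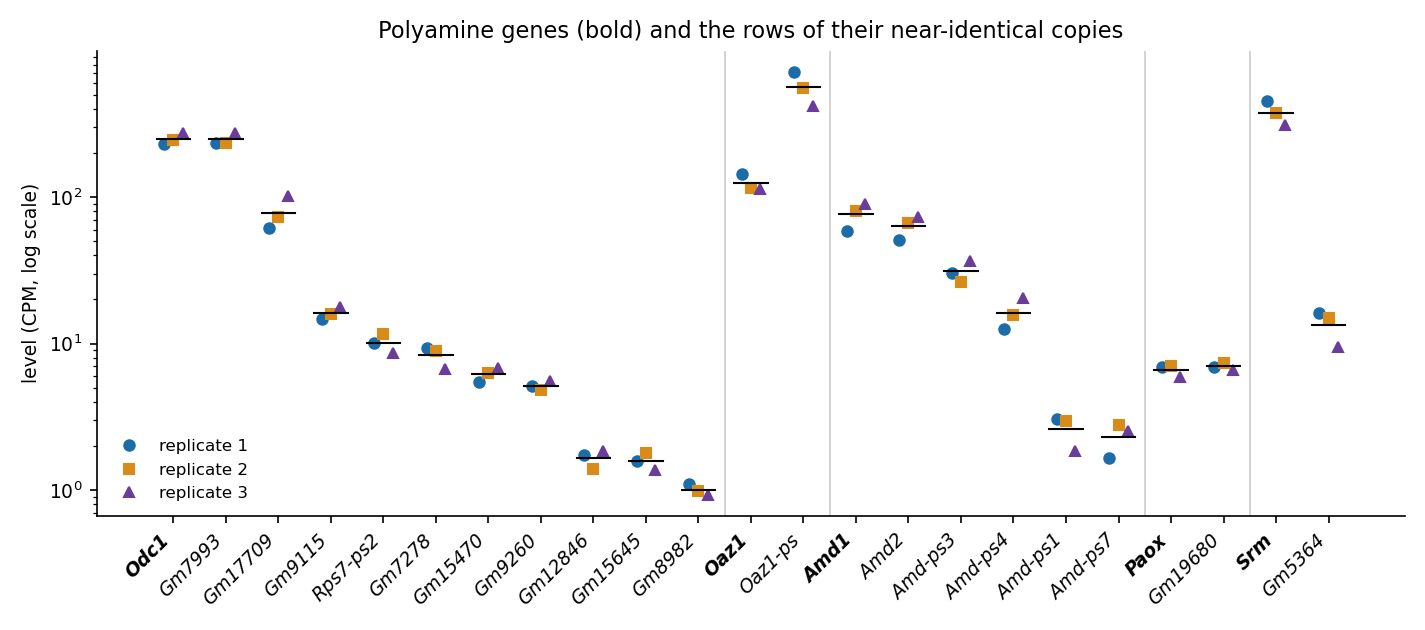
Level (CPM, log axis) in each library of 5 members, in bold, and of their copies averaging 1 CPM or more; lines are means, and members whose copies stayed under 1 CPM are not drawn. Oaz1-ps lies above Oaz1 in each library, and Gm7993 lies at the level of Odc1.

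Opposed and consecutive steps were then set against each other as log2 ratios per kilobase within each library, for 10 pairs fixed by role. Odc1 exceeded its antizyme Oaz1 by 0.27, 0.66 and 0.86 in replicates 1, 2 and 3 (0.60 ± 0.30, 1.51-fold). The ratio was 1.20 with the length of the longest transcript and 1.01 with no division by length, in the same direction. With the length of the longest coding transcript, which is 1071 bases for Oaz1 against 2558 bases over all its exons, the ratio was -0.03 ± 0.30. With the rows of copies added and the length of all exons kept it was -0.53 ± 0.49, and with both of these changes it was -1.16 ± 0.49. Which of the enzyme and its inhibitor had more RNA is therefore not settled by these counts.

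The other 9 pairs kept the direction of their mean under each of these treatments. Odc1 exceeded its inactive relative Azin1 by 2.00 ± 0.11 (3.99-fold), and Azin1 was below Oaz1 by -1.40 ± 0.26. Oaz1 exceeded Oaz2 by 3.48 ± 0.40 (11.2-fold). Srm exceeded Sms by 5.18 ± 0.43 (36.2-fold) and Amd1 by 3.46 ± 0.58 (11.0-fold), and Odc1 exceeded Amd1 by 1.78 ± 0.20. Sat1 exceeded both oxidases, Smox by 1.84 ± 0.27 (3.58-fold) and Paox by 4.11 ± 0.35 (17.3-fold), and Smox exceeded Paox by 2.27 ± 0.14. Each of the 10 mean ratios was larger than its SD and had 1 sign in all 3 libraries. The two-sided exact sign-flip permutation test gave p = 0.25 for every pair (0.25 adjusted over the 10 pairs by Benjamini-Hochberg), the smallest p that 3 libraries allow. Sizes moved by more than 1.5 times under several treatments. With copies added over the length of all exons, the log2 ratio was 3.33 for Odc1 to Azin1, -3.85 for Azin1 to Oaz1, 5.86 for Oaz1 to Oaz2, 2.17 for Srm to Amd1, 3.07 for Sat1 to Paox and 1.23 for Smox to Paox. With the coding transcript length it was -2.29 for Azin1 to Oaz1, 5.29 for Sat1 to Paox and 2.96 for Smox to Paox, and with the longest transcript 2.80 for Oaz1 to Oaz2, 5.07 for Sat1 to Paox and 2.96 for Smox to Paox. With no division by length it was 1.12 for Odc1 to Azin1, 3.27 for Srm to Sms, 2.31 for Srm to Amd1 and 3.29 for Sat1 to Paox. On that scale Azin1 to Oaz1 had a mean of -0.11, and Azin1 was the higher in 2 of 3 libraries.

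**Figure D3:**
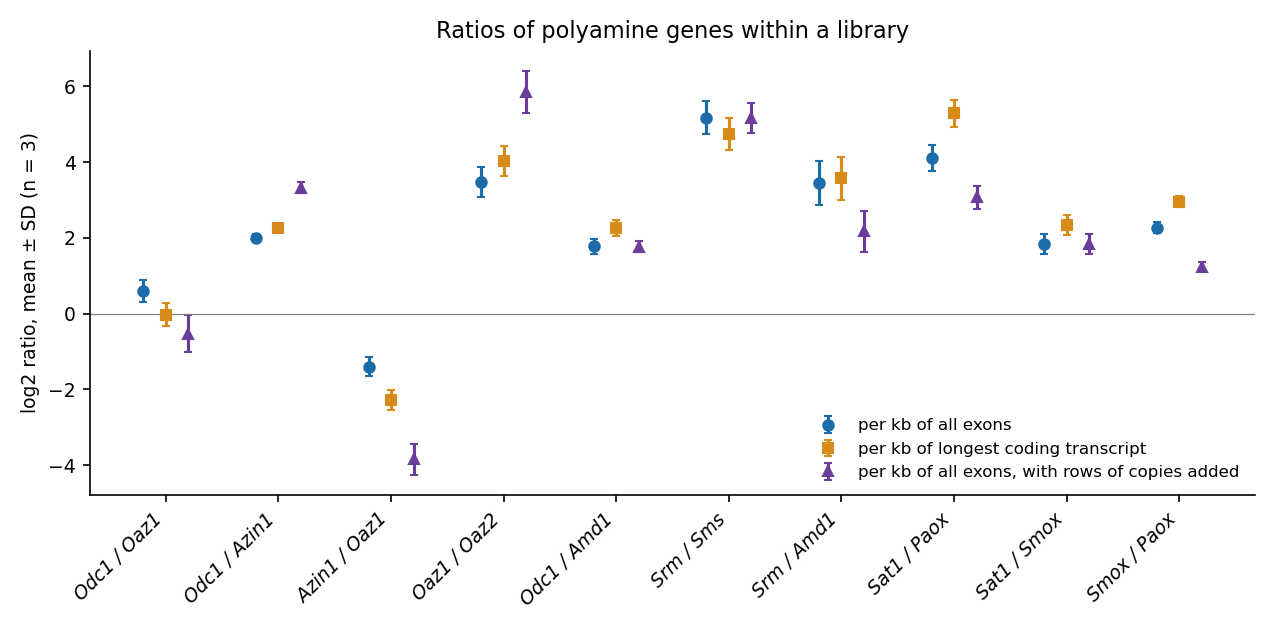
Log2 ratio of 10 pairs of polyamine genes (mean ± SD over 3 libraries) per kilobase of all exons, per kilobase of the longest coding transcript, and per kilobase of all exons with the rows of copies added. The ratio of Odc1 to Oaz1 crosses the line at 0, and the other 9 pairs stay on 1 side.

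The libraries were compared to see whether the spread of a member was wider than counting noise. A chi-square test of the 3 counts against the scaled library sizes, adjusted by Benjamini-Hochberg over all genes, called 8 of the 10 members, beside 42.8% of the 15392 genes tested. Of the 9204 genes averaging 10 CPM or more, 58.5% were called, beside 8 of the 9 members at that level. Most well-counted genes thus differed between these libraries. The test compares libraries, not conditions. Smox (adjusted p = 0.71, chi-square) and Paox (adjusted p = 0.498, chi-square) were not called.

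Members differed in opposite directions. Odc1, Oaz2, Sat1, Sms and Amd1 were highest in replicate 3 and lowest in replicate 1, a direction (called and highest in replicate 3) that 19.1% of all genes had. Srm and Oaz1 were called and highest in replicate 1, as 17.9% of genes were, and Azin1 was called and highest in replicate 2, as 5.76% were. Srm had the lowest adjusted p (1.69e-83, chi-square) with a 1.46-fold range between libraries, followed by Amd1 (adjusted p = 1.35e-18, chi-square) with the widest range, 1.52-fold. Amd1 was the 1 member called with a range of at least 1.5-fold, beside 13.8% of all genes. Sat1 (1.36-fold), Oaz2 (1.37-fold), Oaz1 (1.26-fold), Sms (1.24-fold), Odc1 (1.19-fold) and Azin1 (1.12-fold) had narrower ranges. Coefficients of variation ran from 3.75% for Smox to 20.5% for Amd1, and 8 members were above 8.67%, the median of those 9204 genes. Paox (9.66%, from 88 to 107 counts) was among these 8 although it averaged under 10 CPM and was not called. Odc1 (8.92%) was close to the median. Of 18 copies averaging 1 CPM or more, 12 had their highest library in common with the parent, 6 of 10 for Odc1. Among the 12 were Oaz1-ps, Gm7993, Gm17709 and Amd2. The shares given for all genes (17.9%, 5.76% and 19.1% in replicates 1, 2 and 3) count only genes that were also called. The 12 include copies that were not called, so these shares are not a like measure for them. Copies such as Gm9115 (adjusted p = 0.176, chi-square) and Gm19680 (adjusted p = 0.793, chi-square) were not called, so their highest library may be counting noise.

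Other features of the libraries moved along with these differences, and their part was not tested except for length and base composition. The 18S share given above was highest in replicate 1, as Srm and Oaz1 were, and so was the sum of neutrophil markers (0.943, 0.396 and 0.124 CPM). That sum rests on very few counts, and in replicate 3 it lay below the floor of 0.186 CPM. The sum of macrophage markers was 13.2, 15.6 and 16.4 CPM, lowest in replicate 1 as Odc1 and Sat1 were. Other sums in replicates 1, 2 and 3 went various ways. They were 11.8, 11.3 and 11.1 CPM for B cells and 10.4, 12.5 and 12.0 for dendritic cells. For NK cells they were 0.786, 0.791 and 0.991 CPM, and for stroma and endothelium 56.8, 50.5 and 61.8. A trend of each library over exon length and GC content was fitted across genes. It gave Srm a difference of 0.26 (log2, replicate 1 minus replicate 3) out of 0.55 measured, and Oaz1 0.11 out of 0.34. For Odc1 the trend was 0.04 against a measured -0.25, and for Amd1 -0.18 against -0.60. With the trend in the offset, 7 members were called beside 36.8% of 14296 genes, and Sms no longer passed (adjusted p = 0.616, chi-square). Without replicate 1, 4 of the 10 members remained called (Odc1, Sat1, Srm and Amd1), beside 24.4% of genes. Without replicate 2 there were 7, beside 41.7%, and without replicate 3 there were 6, beside 22.8%. All 8 calls held with no scaling factor (47.1% of genes called), with DESeq2 size factors (42.5%), with no filter on low counts (27.6%) and with a minimum expected count of 20 (50.4%).

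**Figure D4:**
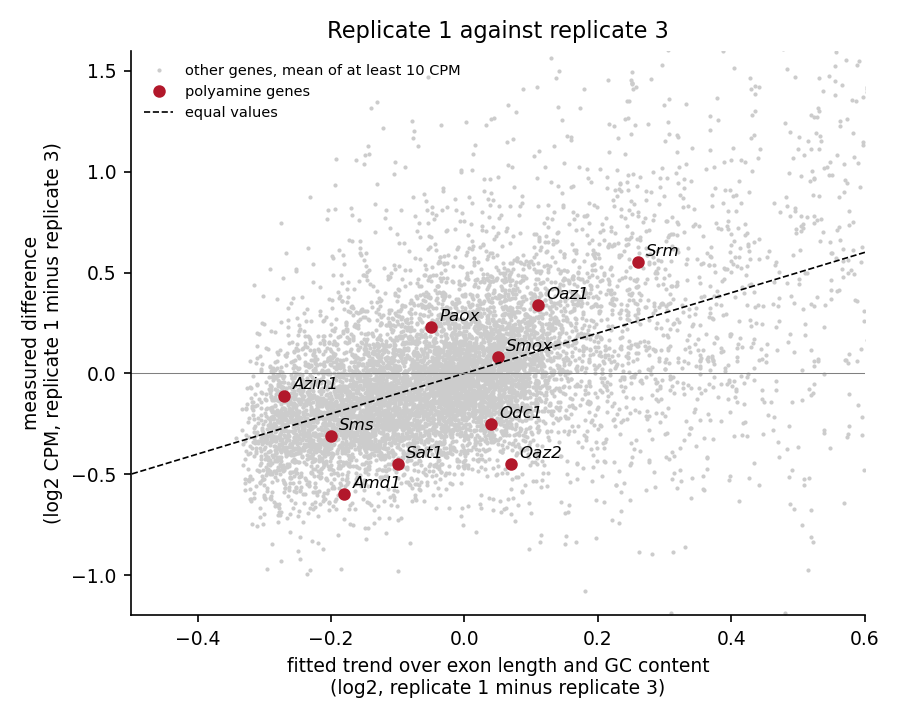
Measured log2 difference between replicates 1 and 3 against the trend fitted over exon length and GC content, for the 10 polyamine genes and 9013 genes averaging 10 CPM or more (231 of them lie outside the axes); the dashed line marks equal values. Srm and Oaz1 lie above 0, and Amd1, Sat1, Oaz2, Sms and Odc1 below it.

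Genes that feed or use the pathway were described from fixed lists. Arginase genes, which make ornithine from arginine, were at or near 0: Arg1 had no counts and Arg2 had 2, 1 and 2. Aldh18a1, which starts the route from glutamate toward proline and ornithine, was at 259.3 ± 9.72 CPM. Oat, which interconverts ornithine and the product of that route, was at 43.8 ± 0.666 CPM. In the list of arginine and ornithine supply, 3 of 10 genes averaged 10 CPM or more, beside 39.8% of genes with a count. In that list 6 stayed under 1 CPM throughout, among them Otc with no counts. Of 4 tested, 3 were called different between libraries (Aldh18a1, Asl and Ass1), all highest in replicate 1, beside 42.8% of all genes called and 17.9% called and highest there.

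The S-adenosylmethionine cycle, which supplies the substrate of Amd1, was well represented. Of its 9 genes, 7 were at 10 CPM or more, beside 39.8% of genes with a count and 59.8% of all genes tested. The list median, with its genes of no counts included, was 69.0 CPM, beside 18.5 CPM over all 15392 genes tested. Mat2a, the methionine adenosyltransferase of non-liver cells, was at 369.3 ± 11.0 CPM (11.3% of its exons overlap the antisense gene Particl) and its regulatory partner Mat2b at 61.1 ± 2.61 CPM. The liver form Mat1a had no counts. Ahcyl1 (159.4 ± 9.64 CPM), Mtrr (106.1 ± 6.07), Ahcyl2 (90.5 ± 7.14) and Mtr (69.0 ± 5.82) were also above 50 CPM. Of the 7 genes tested, 5 were called different between libraries, 3 of them highest in replicate 3 and 2 in replicate 2, beside 58.5% called among genes averaging 10 CPM or more. Over all genes, 19.1% were called and highest in replicate 3 and 5.76% in replicate 2. Mtap, which clears the methylthioadenosine left by both synthases, was at 68.6 ± 4.01 CPM and led the salvage list. In that list 4 of 6 genes reached 10 CPM, beside 39.8% of genes with a count and 59.8% of all genes tested. Of the 6, 1 was called, beside 42.8%.

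Hypusine, a modified lysine made from spermidine, is found in the translation factor eIF5A. Eif5a was at 1884, 1740 and 1494 CPM (1706 ± 197), more than any of the 10 polyamine genes, and copies of Eif5a were not examined. The enzymes Dhps and Dohh, which make the modification in turn, were at 47.5 ± 2.29 and 33.8 ± 7.78 CPM. Eif5a and Dohh, both highest in replicate 1, were the 2 of 4 called in this list, again beside 58.5% of genes at such levels. Eif5a2 was at 17.0 ± 2.16 CPM.

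Transport genes were split between high and undetected. Slc7a1, the arginine transporter CAT1, was at 654.9 ± 10.9 CPM, and Slc3a2, the heavy chain CD98 of several amino acid transporters, at 551.9 ± 25.8 CPM. Atp13a3, a P5-type ATPase linked to polyamine uptake, was at 185.4, 228.5 and 234.6 CPM (216.2 ± 26.8), lowest in replicate 1. Its relative Atp13a2, a lysosomal polyamine exporter, was at 34.6 ± 0.563 CPM. In this list 5 of 13 genes averaged 10 CPM or more, beside 39.8% of genes with a count. The other 8 stayed below 1 CPM throughout, including the organic cation transporter Slc22a3 with no counts. Slc3a2 and Atp13a3 were called, 2 of 5 tested, beside the same 58.5%.

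Among paralogs and further enzymes, 3 of 9 genes reached 10 CPM, beside 39.8% of genes with a count, and 5 stayed below 1 CPM throughout. Of 4 tested, 1 was called, Amd2, beside 42.8% of all genes tested. Amd2 is the near-identical relative of Amd1 described above, so its call and that of Amd1 may rest on the same reads. Aoc2, a copper amine oxidase, was at 75.2 ± 0.651 CPM, and Hdac10, a polyamine deacetylase, at 18.8 ± 0.675 CPM. Sat2, Satl1 and Aoc1 had no counts, and Azin2 had 1, 0 and 4. Myc, known to drive Odc1, was at 634.9 ± 23.8 CPM and its partner Max at 146.4 ± 17.0 CPM, while Mycn and Mycl had at most 2 counts in a library. Both Myc and Max were called, beside 58.5% of genes averaging 10 CPM or more. Myc had 649.3, 647.9 and 607.3 CPM in replicates 1, 2 and 3, a 1.07-fold range, and Max had a 1.26-fold range. Both were lowest in replicate 3, where Odc1 was highest, and a link to Odc1 was not tested.

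**Figure D5:**
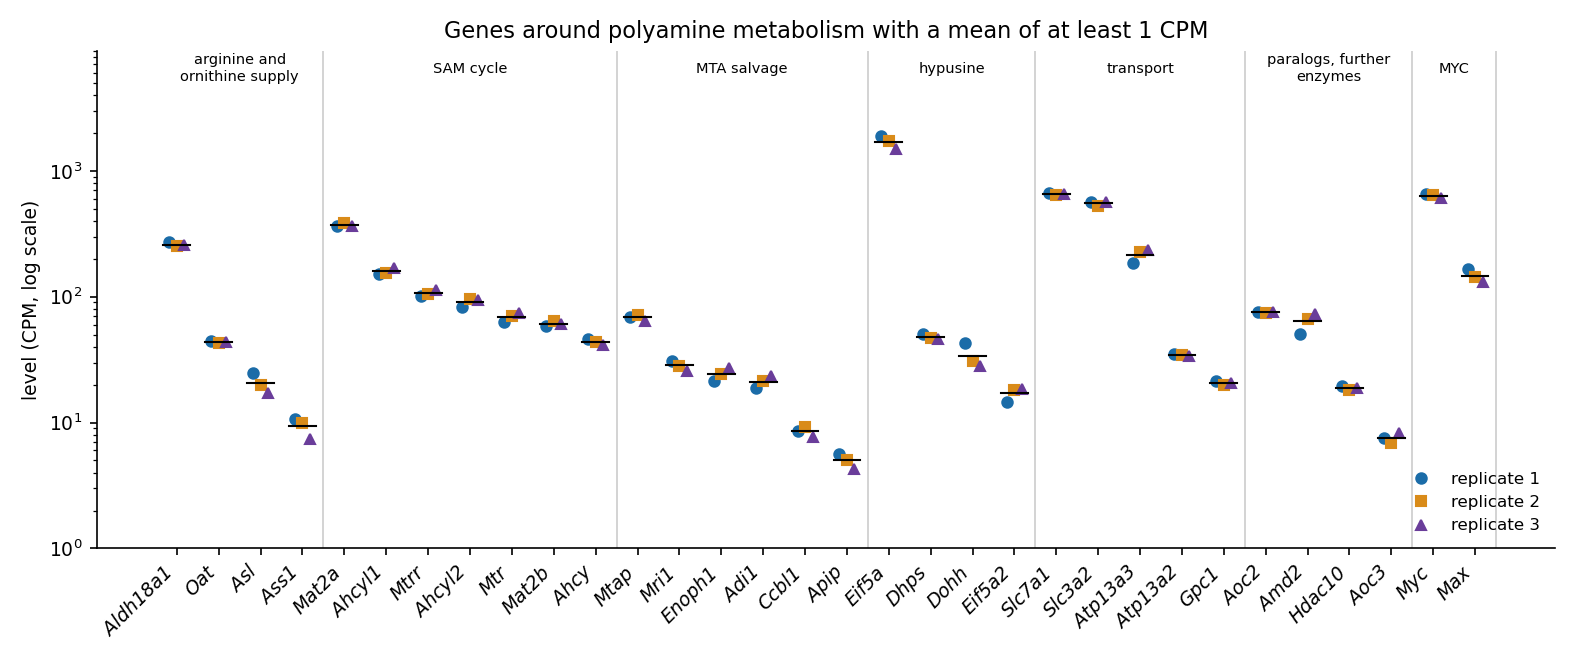
Level (CPM, log axis) in each library of the genes around polyamine metabolism averaging 1 CPM or more, by list, with lines at the means (SAM, S-adenosylmethionine; MTA, methylthioadenosine). Eif5a is the highest, followed by Slc7a1, Myc and Slc3a2.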

How the data were processed

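The authors deposited raw counts per gene symbol for 3 libraries, prepared for Ion Proton sequencing per the labels. Per the submitters' processing notes the genome was mm10. Aligner, counter, annotation and strand are named in none of the sources used here. The genes and lists were chosen with earlier results of these data known.

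Counts were scaled with edgeR 4.0.16 (TMM factors 0.962, 1.01 and 1.03) in R 4.3.3. Chi-square tests used genes with an expected count of at least 5 in each library, at an adjusted p of 0.05. They were also run on simulated counts that held only counting noise and planted differences. Such counts do not show how the test behaves on these libraries. Lengths came from GENCODE M21 (31006 symbols matched directly, 1209 through older names, among them Azin2, Kyat1 and Adgre1). Copies were coding or pseudogene transcripts with at least 90% identity over 200 bases (blastn 2.17.0). After the data were seen, copies also had to be covered by at least 50% and touch the coding sequence. Trends used splines with 6 degrees of freedom.

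Named were the members, list genes averaging 50 CPM or more, copies of at least 1 CPM, and the 3 coding genes nearest to Odc1. Zero-count genes and other lower list genes were named after their values were seen. Alternatives were DESeq2 1.42.0 size factors, no scaling, other filters, lengths and trends, and single replicates left out. Protein sequences were not used here. A further marker list is not reported here.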

Additional observations from a re-analysis of the deposited data

How the results depend on the processing

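Of 8 alternatives for the count of members differing between libraries, 7 stayed within 1.5 times of the 8 called, and without replicate 1 the count was 4. Leaving out single replicates gave 4 to 7. Azin1, Oaz1, Oaz2 and Sms were lost without replicate 1, Azin1 without replicate 2, and Oaz2 and Sms without replicate 3. With a library left out, fewer counts are tested. No scaling, DESeq2 size factors, no filter and a minimum expected count of 20 changed no member's call. The log2 ratio of Odc1 to Oaz1 turned to -0.03 with the length of the longest coding transcript, to -0.53 with copies added over the length of all exons and to -1.16 with both changes, alternatives chosen after seeing the data. The other 77 alternative mean ratios kept their direction. Many of these could not have turned or were repeats. Each pair had 1 sign in all 3 libraries, so leaving out a replicate could not turn its mean. Adding copies left Sat1 to Smox at 1.84, since neither has rows of copies. The longest transcript and the longest coding transcript gave the same ratio for several pairs, such as 4.74 for Srm to Sms. Without single replicates, the log2 ratios ranged from 0.47 to 0.76 for Odc1 to Oaz1, 1.94 to 2.05 for Odc1 to Azin1, -1.48 to -1.25 for Azin1 to Oaz1, 3.26 to 3.66 for Oaz1 to Oaz2, 1.66 to 1.84 for Odc1 to Amd1, 4.96 to 5.38 for Srm to Sms, 3.14 to 3.72 for Srm to Amd1, 3.92 to 4.26 for Sat1 to Paox, 1.72 to 1.98 for Sat1 to Smox and 2.20 to 2.34 for Smox to Paox. Of 57 alternative mean levels, 53 moved by less than 1 SD, and the other 4 were those with copies added for Odc1, Oaz1, Amd1 and Paox. Many of the 53 left out 1 of the 3 libraries. That step can hardly move a mean by 1 SD of the same 3 values, so these say little about stability. No paired comparison between groups was possible because all libraries belong to 1 group. Depth limits Paox most, at 88 to 107 counts.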

Other observations

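The coding genes outside the pathway with the levels nearest to Odc1 in all 3 libraries were Atp11a (232, 239 and 266 CPM), Rrp1b (237, 245 and 269 CPM) and Nrd1 (231, 251 and 283 CPM). Their largest differences from Odc1 were 0.03, 0.05 and 0.06 on the scale of log2(CPM + 1), over 3 libraries of 1 condition.

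Promoter windows of RefSeq (GRCm38.p6, from 250 bases before to 50 after the start) were matched for 8 of the 10 members. The E-box CACGTG, searched on both strands, occurred in a window of 1 of the 8 (Sms), beside 7.15% of 32851 promoters. GGGCGG occurred in windows of 7 of the 8, beside 35.7% of promoters, with Oaz1 the exception. TATAAA occurred in 1 of the 8 (Oaz1), beside 13.6%. Sms and Paox have more than 1 window, so the counts by gene and by window are not on the same footing, and a match is not a binding site.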
